A study of Mus musculus with 4 samples.

Results

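The genes for heat shock proteins and for DnaJ proteins form the core of the cellular protein folding machinery. Here they were described in Lgr5+ and Lgr6+ hair cell (HC) progenitors of the neonatal mouse cochlea. A gene was a member when its symbol in the deposited table began with Hsp followed by a family letter or digit (0 to 9, a, b, d, e or h), or with Dnaj followed by a, b or c and a number. Of the 23997 genes in the table, 74 were members, 29 of them Hsp genes and 45 DnaJ genes. The Lgr5+ progenitors came from Lgr5-EGFP-IRES-CreERT2 mice and the Lgr6+ progenitors from Lgr6-EGFP-IRES-CreERT2 mice, strains in which the promoter of the receptor gene drives EGFP and an inducible Cre. All were labelled C57BL/6, and no treatment is stated for either population. At this age Lgr5 is known to mark several kinds of supporting cells and part of the greater epithelial ridge, and Lgr6 a subset of the inner pillar cells among them. EGFP+ cells were sorted from trypsin-digested cochleae at postnatal day 3 (P3). The labels list 2 libraries per population, 4 in all, whereas the methods of the study state that the RNA of each population was divided into 3 fractions, so that the replicates of a population would share 1 extraction. The deposited table holds 1 combined FPKM value per population (the fragment count of a gene divided by its transcript length and by the mapped fragments of the library), so no difference below has a replicate error, and no test or *p*-value was calculated.

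Proteins of the Hsp70 family bind short hydrophobic stretches of unfolded clients in a cycle driven by ATP. DnaJ proteins (also called J proteins or Hsp40) deliver clients to Hsp70 and stimulate its ATP hydrolysis through their J domain, while Hsp110 proteins and Bag domain proteins release ADP and so restart the cycle. Hsp90 acts later on partly folded kinases and receptors, Hsp60 (*Hspd1*) with its lid Hsp10 (*Hspe1*) folds proteins inside mitochondria, and the small heat shock proteins hold unfolded proteins without using ATP. In the inner ear, induction of Hsp70 in supporting cells is known to protect HCs from ototoxic drugs.

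A gene was kept when its FPKM was at least 1 in at least 1 population. A difference is given as log2(FPKM + 1) in Lgr6+ progenitors minus log2(FPKM + 1) in Lgr5+ progenitors, so that a negative value is higher in Lgr5+, and a gene passed the fold when the difference was at least 1.5-fold on this scale, which understates differences of genes with low values. The FPKM values of all genes summed to 754163 in Lgr5+ and to 627932 in Lgr6+ progenitors. Scaling the columns to equal sums moved the log2 differences of abundant genes by 0.26 toward Lgr6+, and the median over all kept genes then stood at 0.28 in place of 0.03. *Lgr5* itself was at an FPKM of 9.65 in Lgr5+ and 25.0 in Lgr6+, and *Lgr6* at 2.06 and 2.90, so the *Lgr5* transcript was higher in the Lgr6+ progenitors. With 1 value per population, no library could be left out. Of 6 markers of supporting cells, *Sox2* (140 in Lgr5+ and 54.8 in Lgr6+) and *Jag1* (108 and 59.2) passed the fold toward Lgr5+ and *Lfng* (9.96 and 17.4) toward Lgr6+. Their sums of 3304 and 3379 were mostly *S100a1* (2959 and 3177). Markers of other cells differed between the populations: 5 of 6 HC markers (sum 144 and 363), 7 of 8 macrophage markers (1.47 and 256, with 5 of the 8 listed at 0 in Lgr5+), 8 of 8 endothelial markers (26.5 and 157), 3 of 4 glial markers (34.2 and 211) 3 of 7 mesenchymal markers (309 and 565) and 2 of 7 markers of smooth muscle and pericytes (12.0 and 16.2, with *Acta2* at 0 in both) passed the fold toward Lgr6+, while 1 mesenchymal marker and 3 of 4 red cell markers (487 and 107) passed it toward Lgr5+. Their part in the differences of the chaperone genes was not tested, and in such bulk samples fewer cells of a type and less RNA per cell cannot be told apart.

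The promoters of the chaperone genes are shown for those that held the response elements the family is known for. The promoter table of RefSeq (GRCm38.p6, 250 bases before to 50 bases after each start) matched 60 of the 74 members with 77 promoters. Heat shock factors bind repeats of a pentamer, and the heat shock element was searched as GAANNTTCNNGAA, which reads TTCNNGAANNTTC on the other strand. It occurred in 198 of 32851 promoters (0.603%), which belong to 179 of 27025 genes (0.662%), and in promoters of 4 of the 60 members (6.67%), *Hspd1*, *Hspe1*, *Dnajb6* and *Hsph1*. *Hspd1* and *Hspe1* lie head to head on chromosome 1, with 215 bases between their deposited intervals, and share a stretch with 2 overlapping matches. The matches are in capitals, with the sequence of *Hspe1* from chr1:55088029-55088106 (+ strand) and that of *Dnajb6* from chr5:29735822-29735894 (+ strand).
Hspe1: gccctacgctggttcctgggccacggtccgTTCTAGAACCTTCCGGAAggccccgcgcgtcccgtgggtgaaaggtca
Dnajb6: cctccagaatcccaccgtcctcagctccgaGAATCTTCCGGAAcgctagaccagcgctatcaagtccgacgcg

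The endoplasmic reticulum (ER) stress element was searched as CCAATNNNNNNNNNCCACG on both strands. It occurred in 39 of 32851 promoters (0.119%), which belong to 37 of 27025 genes (0.137%), and in those of 3 of the 60 members (5.0%), *Hspa5*, *Hsp90b1* and *Dnajc3*, all of which encode chaperones of the ER lumen. The stretches are from chr2:34771995-34772073 (+) for *Hspa5*, chr10:86705503-86705686 (−) for *Hsp90b1*, which held the element on both strands, and chr14:118937797-118937875 (+) for *Dnajc3*, again with the matches in capitals.
Hspa5: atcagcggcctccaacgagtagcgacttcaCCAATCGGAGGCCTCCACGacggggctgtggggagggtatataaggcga
Hsp90b1: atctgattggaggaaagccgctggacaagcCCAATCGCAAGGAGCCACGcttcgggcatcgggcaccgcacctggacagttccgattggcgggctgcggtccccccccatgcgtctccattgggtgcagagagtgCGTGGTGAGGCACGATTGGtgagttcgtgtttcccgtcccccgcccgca
Dnajc3: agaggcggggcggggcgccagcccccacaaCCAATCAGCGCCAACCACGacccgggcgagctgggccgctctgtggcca
A match is a description of the letters in the window, not of factor binding. The values of these 7 genes are given with their families below. A shorter pair of the heat shock repeat, GAANNTTC, was also searched. It occurred in promoters of 2442 of 27025 genes (9.04%) and of 14 of the 60 members (23.3%). Besides the 4 genes with the longer element, these were *Dnaja1*, *Dnaja4*, *Dnajc27*, *Dnajc5g*, *Hspa1a*, *Hspa1b*, *Hspb1*, *Hspb3*, *Hspb6* and *Hspb8*.

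Of the 74 members, 64 were kept, 23 Hsp genes and 41 DnaJ genes. Among them, 20 passed the fold toward Lgr5+ progenitors (31.3% of the kept members, beside 23.3% of all 13436 kept genes), 17 passed it toward Lgr6+ progenitors (26.6%, beside 28.5%), and 27 stayed under it. The shares of all kept genes, 23.3% and 28.5%, also stand beside the counts by family and list below. The median difference was -0.14, beside 0.03 for all kept genes. This direction depended on the scaling: with equal sums, 12 members passed the fold toward Lgr5+ (18.8%, beside 16.3% of all genes) and 19 toward Lgr6+ (29.7%, beside 37.6%) and the median was 0.11 beside 0.28, so that 38.7% of the members past the fold were higher in Lgr5+ in place of 54.1%. The distance between the members' median and that of all genes was -0.18 as deposited and -0.17 with equal sums. Scaling a column by a constant moves members and other genes nearly alike, so this distance could hardly change.

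The difference shifted toward Lgr5+ with the level, among the members as among all genes. Of the 22 members with an FPKM of at least 50 in a population, 10 passed the fold toward Lgr5+ (45.5%, beside 29.1% of all 2274 genes of that level) and 5 toward Lgr6+ (22.7%, beside 14.9%), with a median of -0.42 beside -0.21 for all genes of that level. Of the 19 members between 1 and 10, 5 passed in each direction (26.3%, beside 20.9% of all 5812 genes of that level toward Lgr5+ and 37.0% toward Lgr6+), and the median was -0.06 beside 0.23. Of the 23 members between 10 and 50, 5 passed toward Lgr5+ (21.7%, beside 23.5% of all 5350 genes of that level) and 7 toward Lgr6+ (30.4%, beside 25.0%). Their median was -0.01, as for all genes of that level. All members together summed to an FPKM of 5478 in Lgr5+ progenitors (0.726% of the sum over all genes) and 4012 in Lgr6+ progenitors (0.639%). The 6 most abundant members, *Hsp90ab1*, *Hspa8*, *Hspe1*, *Hsp90b1*, *Hspa5* and *Hsp90aa1*, made up 67.6% of the members' sum in Lgr5+ and 61.2% in Lgr6+.

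**Figure D1:**
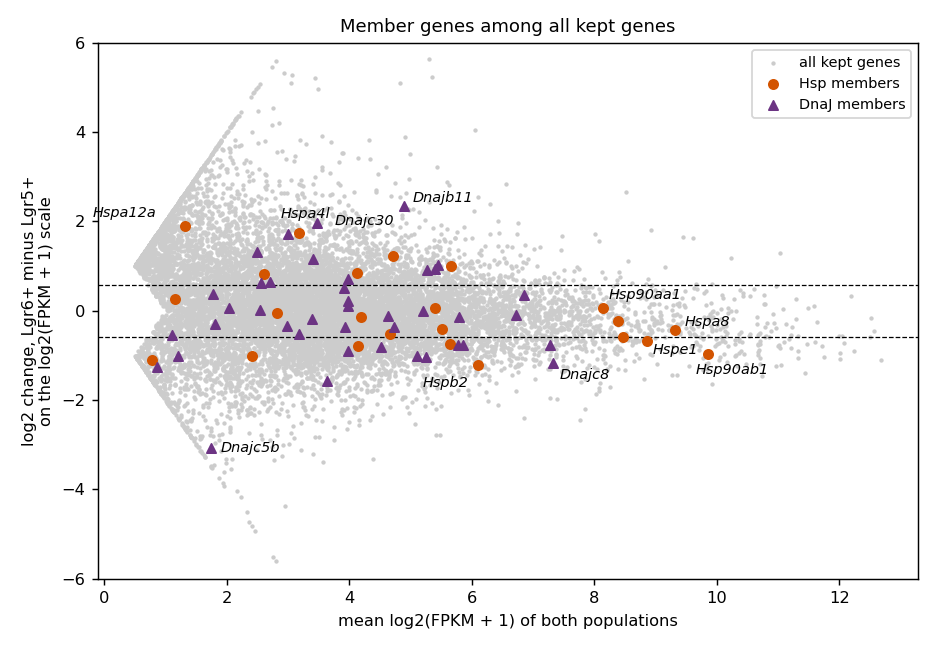
Difference in log2(FPKM + 1), Lgr6+ minus Lgr5+ (vertical axis), against the mean log2(FPKM + 1) of both populations (horizontal axis) for the 13436 kept genes (grey), the 23 Hsp members (orange circles) and the 41 DnaJ members (purple triangles), 1 point per gene, with dashed lines at the 1.5-fold limit. The vertical axis is cut, so the grey genes with the largest differences are not drawn (kept genes ran from -10.9 to 11.8). The members spread over both sides at low and middle levels, and the abundant *Hsp90ab1*, *Hspe1* and *Dnajc8* lie below the lower line while *Hsp90aa1* lies at 0.05.

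The 3 Hsp90 genes summed to an FPKM of 2011 in Lgr5+ and 1234 in Lgr6+ progenitors. *Hsp90ab1*, the constitutive cytosolic Hsp90 (chr17:45567778-45573261), was the most abundant member in both populations, at 1301 in Lgr5+ and 661 in Lgr6+, a difference of -0.98. It took 23.8% of the members' sum in Lgr5+ and 16.5% in Lgr6+, and ranked 107 and 167 among all genes. *Hsp90aa1*, the stress-inducible cytosolic Hsp90, was at 276 in Lgr5+ and 286 in Lgr6+ (0.05), so the ratio of *Hsp90ab1* to *Hsp90aa1*, which no scaling of a column by a constant changes, was 4.72 in Lgr5+ and 2.31 in Lgr6+. *Hsp90b1*, the ER form also called Grp94, was at 433 and 287, a difference of -0.59 that lay just past the fold and that no longer passed under any of the other 3 scalings. *Hsp90ab1* stayed past the fold with equal sums and equal upper quartiles and lay at -0.58, just under it, after quantile normalization.

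Of the 14 Hsp70 and Hsp110 genes, 11 were kept, and 1 passed the fold toward Lgr5+ and 4 toward Lgr6+. Their median was -0.06 and turned to 0.17 with equal sums. The abundant housekeeping forms stayed under the fold. *Hspa8*, the constitutive cytosolic Hsp70 (Hsc70), was at an FPKM of 744 in Lgr5+ and 549 in Lgr6+ (-0.44), and 3 small nucleolar RNA genes lie within it. *Hspa5*, which encodes the ER lumenal Hsp70 BiP and whose annotated gene overlaps *Rabepk*, was at 361 and 306 (-0.24). *Hspa9*, the mitochondrial Hsp70 mortalin, was at 40.1 and 42.0 (0.06). *Hspa14*, a ribosome-associated Hsp70, was at 18.2 and 16.3 (-0.15), and *Hspa13*, a microsomal relative, at 6.19 and 5.92 (-0.06). Of these 5 genes, *Hspa8* differed the most between the populations.

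The Hsp70 genes higher in Lgr6+ progenitors were of low to middle level. *Hspa2*, an Hsp70 best known from spermatogenesis, was at 16.2 in Lgr5+ and 38.9 in Lgr6+ (1.21), so that it stood at 2.18% of the *Hspa8* level in Lgr5+ and at 7.09% in Lgr6+. *Hspa12a*, a distant Hsp70 relative, was at 0.285 and 3.78 (1.89), and its annotated gene overlaps *Eno4*. *Hspa1l*, a testis form, was at 1.51 and 0.162 (-1.11) and was the single Hsp70 gene past the fold toward Lgr5+.

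The Hsp110 genes, which encode the nucleotide exchange factors of cytosolic Hsp70, went different ways. *Hspa4* was at 29.4 in Lgr5+ and 20.3 in Lgr6+ (-0.51), whereas *Hspa4l* was at 3.99 and 15.6 (1.73) and *Hsph1*, the stress-inducible Hsp105, at 12.0 and 22.3 (0.85). The ratio of *Hspa4l* to *Hspa4* was thus 0.136 in Lgr5+ and 0.766 in Lgr6+. The 2 promoters of *Hsph1* in the table both held the heat shock element after the start. *Hspe1* and *Hspd1*, which hold it before theirs, differed in the other direction. Any part of the element in these differences was not tested.

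Both subunits of the mitochondrial chaperonin passed the fold toward Lgr5+ progenitors. *Hspe1*, which encodes Hsp10, was at an FPKM of 586 in Lgr5+ and 366 in Lgr6+ (-0.68), and *Hspd1*, which encodes Hsp60, at 64.1 and 37.6 (-0.75). The ratio of *Hspe1* to *Hspd1* was 9.14 in Lgr5+ and 9.75 in Lgr6+, so the pair kept nearly the same proportion. Any part of the shared promoter stretch printed above in this was not tested. The annotated genes overlap each other, and both lay under the fold with equal sums, at -0.41 for *Hspe1* and -0.50 for *Hspd1*. *Hspe1* also lay under it after quantile normalization (-0.43) and with equal upper quartiles (-0.52).

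The small heat shock genes divided by member, with 5 of 8 kept, 3 past the fold toward Lgr5+ and 2 toward Lgr6+. *Hspb1*, the stress-inducible Hsp27 homolog, was at 22.0 in Lgr5+ and 12.4 in Lgr6+ (-0.78). *Hspb8*, which works with the cochaperone Bag3, was at 6.55 and 2.75 (-1.01). *Hspb2* was at 103 and 43.9 (-1.21), but its deposited interval (chr9:50751072-50756635) is also that of the neighbouring *Cryab*, the alpha B-crystallin gene, which was at 1290 and 1011 (-0.35). The ratio of *Hspb2* to *Cryab* was 7.99% in Lgr5+ and 4.35% in Lgr6+. On the other side, *Hspb6* was at 3.57 and 7.03 (0.81), and its annotated gene overlaps *Lin37*. *Hspb11* was at 34.7 and 70.0 (0.99), and despite its symbol it encodes a subunit of the intraflagellar transport machinery of cilia. *Hspb3* and *Hspb9* were listed at 0 in both populations.

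**Figure D2:**
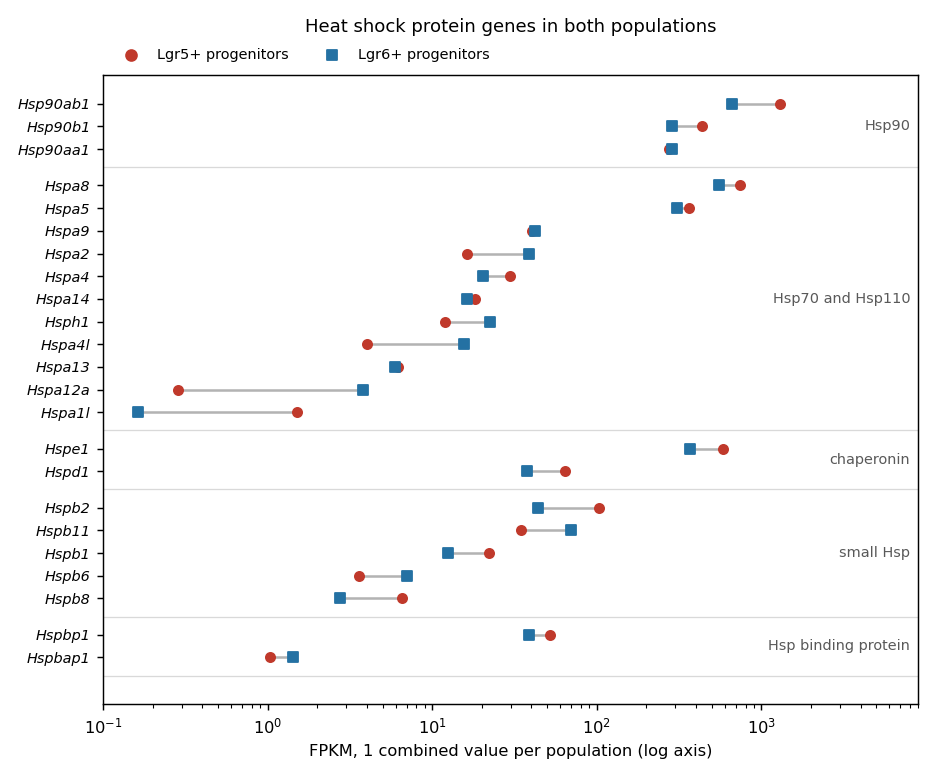
FPKM of the 23 kept Hsp members in Lgr5+ (red circles) and Lgr6+ progenitors (blue squares) on a log axis, 1 combined value per population with no error, grouped by family. Circles lie to the right for *Hsp90ab1*, *Hsp90b1*, *Hspe1* and *Hspd1*, and squares lie to the right for *Hspa2*, *Hsph1*, *Hspa4l*, *Hspa12a*, *Hspb11* and *Hspb6*.

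Among the DnaJ genes, 41 of 45 were kept, and 12 passed the fold toward Lgr5+ (29.3%) and 11 toward Lgr6+ (26.8%). The median of -0.12 turned to 0.13 with equal sums. Their sum was 1361 in Lgr5+ and 1176 in Lgr6+. The 4 class A genes, whose products share the whole domain layout of bacterial DnaJ, had a median of 0.26. The cytosolic pair of this class differed in opposite directions: *Dnaja1* was at 74.4 in Lgr5+ and 43.6 in Lgr6+ (-0.76), and *Dnaja2* at 27.1 and 52.0 (0.91). The ratio of *Dnaja1* to *Dnaja2* was 2.74 in Lgr5+ and 0.839 in Lgr6+, so their order was exchanged between the populations. The deposited interval of *Dnaja1* also covers *Aptx* and *Smu1*. *Dnaja4* was at 11.3 and 19.3 (0.72), and *Dnaja3*, the mitochondrial form, at 10.2 and 8.79 (-0.19).

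The 10 kept class B genes had a median of 0.20, with 2 past the fold toward Lgr5+ and 4 toward Lgr6+. *Dnajb11*, a lumenal ER cofactor of BiP also known as ERdj3, had the highest difference of all members, at an FPKM of 12.1 in Lgr5+ and 65.6 in Lgr6+ (2.34). It stood at 3.36% of the level of *Hspa5*, its Hsp70 partner, in Lgr5+ and at 21.4% in Lgr6+. Its deposited interval (chr16:22857845-22899451) also covers *Ahsg*, which was listed at 0 in both populations. *Dnajb12*, an ER membrane protein that acts with cytosolic Hsp70 in the disposal of membrane proteins, was at 20.3 and 6.20 (-1.57), the lowest of its class.

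*Dnajb13*, known from the axoneme of motile cilia and sperm, was at 3.42 in Lgr5+ and 13.4 in Lgr6+ (1.71). *Dnajb2*, which carries ubiquitin-interacting motifs, was at 29.5 and 61.3 (1.03). *Dnajb6*, a suppressor of aggregation and the most abundant class B gene in both populations, was at 108 and 101 (-0.10), and its promoter holds the heat shock element. *Dnajb1*, the stress-inducible partner of cytosolic Hsp70, was at 29.2 and 16.2 (-0.81), and *Dnajb9*, an ER cofactor induced by unfolded proteins, at 4.21 and 7.14 (0.64).

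Class C proteins share only the J domain, and the 27 kept genes had 9 past the fold toward Lgr5+ and 5 toward Lgr6+. Their median of -0.14 turned to 0.12 with equal sums. *Dnajc8*, a nuclear protein associated with the spliceosome, was the most abundant class C gene in Lgr5+, at 242 there and 106 in Lgr6+ (-1.18). *Dnajc19* and *Dnajc15*, which encode paralogous J proteins of the motor that pulls proteins into mitochondria, were at 201 and 118 (-0.77) and at 101 and 129 (0.35). The interval of *Dnajc19* also covers *Fxr1*. *Dnajc2*, which recruits Hsp70 to the ribosome, was at 53.7 and 25.6 (-1.04), and *Dnajc21*, which acts in the maturation of the large ribosomal subunit, at 48.2 and 23.2 (-1.02).

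*Dnajc5b*, a testis form of cysteine string protein, had the lowest difference of all members, at 8.70 in Lgr5+ and 0.161 in Lgr6+ (-3.06). *Dnajc30*, a mitochondrial J protein, was at 4.58 and 20.8 (1.97), and its interval is shared with *Wbscr22*. *Dnajc27*, a small GTPase with a J domain, was at 2.56 and 7.90 (1.32), and *Dnajc12*, a cochaperone of the aromatic amino acid hydroxylases, at 6.08 and 14.7 (1.15). These 3 genes and *Dnajc17*, whose annotated gene overlaps *Zfyve19*, at 29.4 and 57.1 (0.93), and *Dnajc13*, at 3.72 and 6.30 (0.63), were the 5 class C genes past the fold toward Lgr6+. *Dnajc24*, which acts in diphthamide synthesis, was at 36.0 in Lgr5+ and 35.9 in Lgr6+ (-0.01).

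**Figure D3:**
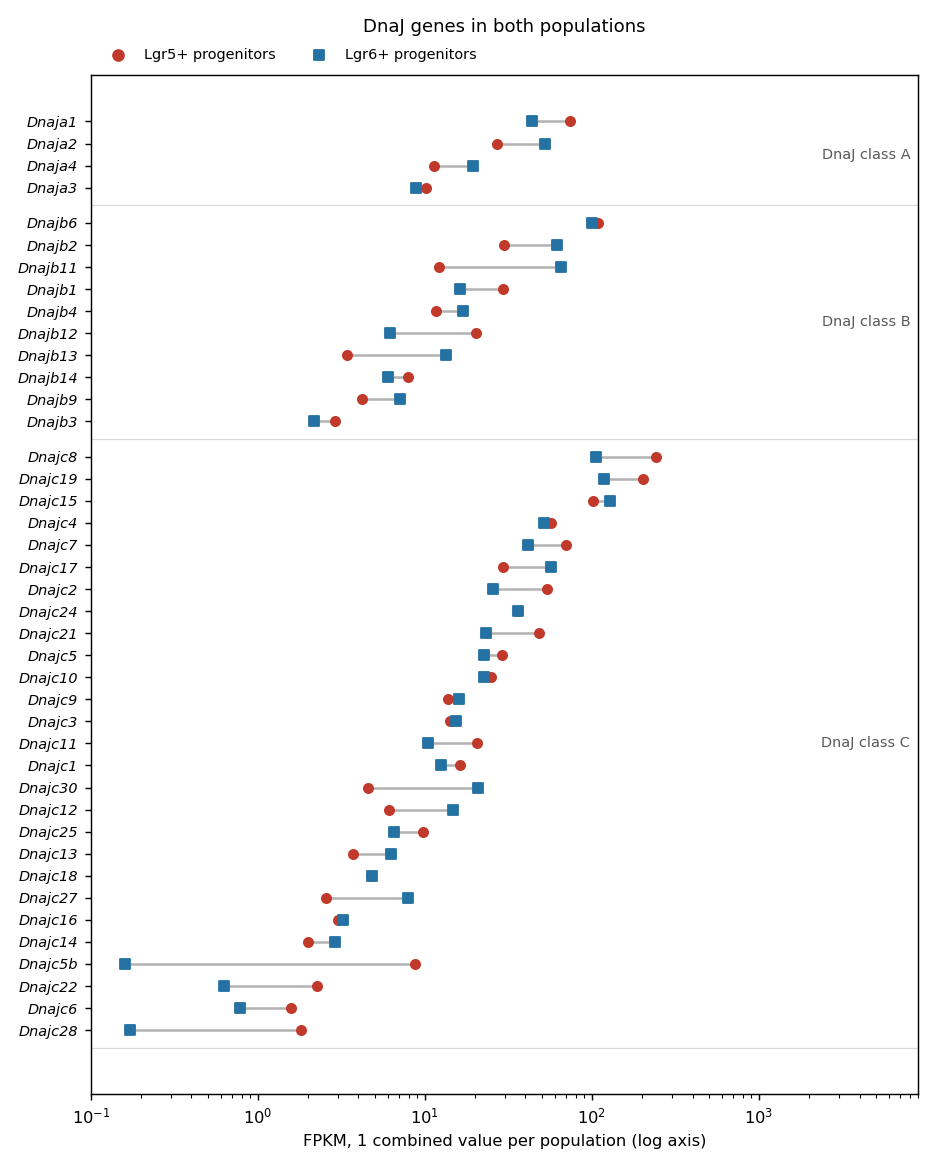
FPKM of the 41 kept DnaJ members in Lgr5+ (red circles) and Lgr6+ progenitors (blue squares) on a log axis, 1 combined value per population with no error, grouped by class. The widest gaps are those of *Dnajc5b* and *Dnajc28*, higher in Lgr5+, and of *Dnajb11* and *Dnajc30*, higher in Lgr6+.

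The major inducible Hsp70 genes stayed under an FPKM of 1 in both populations. *Hspa1a* was at an FPKM of 0.0835 in Lgr5+ and 0.648 in Lgr6+, and *Hspa1b* at 0.896 and 0.321. The sequences of this pair are nearly identical, so reads can be split between them, and neither was kept. In genes with 1 annotated transcript the lowest values came in steps, of 0.129 FPKM times kilobase in Lgr5+ and 0.0402 in Lgr6+. If a step is 1 fragment, *Hspa1a* rested on about 1.77 fragments in Lgr5+ and 43.9 in Lgr6+, *Hspa1l* on 26.7 and 9.17, and *Hspa12a* on 12.3 and 519. Of the other low members, *Dnajb5* was at 0.105 and 0.338, *Dnajb7* at 0.172 and 0.201 and *Hspb7* at 0.0502 and 0.240. *Dnajb8*, *Dnajc5g*, *Hspa12b*, *Hspb3* and *Hspb9* were listed at 0 in both populations. For *Dnajc5g* and *Hspa12b* the deposited intervals reach 416 kb and 477 kb and hold 20 and 10 other protein-coding genes of the table. Of those, 3 and 0 were also listed at 0 in both populations. Whether the 0 of these members comes from absent transcripts or from the estimate was not tested.

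Of the 10 members known to be induced by heat, 8 were kept. *Dnaja1*, *Dnajb1*, *Hspb1*, *Hspd1* and *Hspe1* passed the fold toward Lgr5+, between -0.81 and -0.68, and *Hsph1* passed it toward Lgr6+. The list's median was -0.72 (-0.45 with equal sums, where none passed toward Lgr5+ and 2 passed toward Lgr6+). *Hsp90aa1* (0.05) and *Dnajb4* (0.50) stayed under the fold, and *Hspa1a* and *Hspa1b* were not kept. *Hsf1*, which encodes the main heat shock factor, was at 25.7 in Lgr5+ and 28.7 in Lgr6+ (0.15). *Hsf2* was at 10.4 in Lgr5+ and 4.45 in Lgr6+ (-1.07), past the fold toward Lgr5+, and *Hsf4* was listed at 0 in both populations.

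By compartment, the 9 mitochondrial members had 5 past the fold toward Lgr5+ (55.6%) and 1 toward Lgr6+ (11.1%), with a median of -0.68. With equal sums 2 passed in each direction, and the median was -0.41. Besides the chaperonin genes and *Dnajc19*, these were *Dnajc11*, a protein of the inner membrane organizing complex, at 20.5 in Lgr5+ and 10.5 in Lgr6+ (-0.91), and *Dnajc28*, at 1.82 and 0.171 (-1.27). *Hspa9*, the Hsp70 of the compartment, did not differ by the fold. The 11 ER members had 2 past the fold in each direction, *Hsp90b1* and *Dnajb12* toward Lgr5+ and *Dnajb11* and *Dnajb9* toward Lgr6+, and a median of -0.24 that was 0.03 with equal sums. The 3 ER genes with the stress element in their promoter, *Hsp90b1* (-0.59), *Hspa5* (-0.24) and *Dnajc3* (14.2 in Lgr5+ and 15.3 in Lgr6+, 0.10), spanned both signs. Of the 9 germ cell forms 5 were kept, with *Hspa1l* and *Dnajc5b* past the fold toward Lgr5+ and *Hspa2* and *Dnajb13* toward Lgr6+ (median -0.30). The 4 constitutive cytosolic members, *Hsp90ab1*, *Hspa8*, *Hspa4* and *Dnaja2*, had a median of -0.48, with *Hsp90ab1* and *Dnaja2* past the fold on different sides. Of the ribosome-associated pair, *Dnajc2* passed the fold and *Hspa14* did not. Of the 3 genes of clathrin and synaptic vesicles, *Dnajc13* passed it toward Lgr6+, and *Dnajc5*, the cysteine string protein of synaptic vesicles, was at 29.0 and 22.4 (-0.36) and *Dnajc6*, the uncoating factor auxilin, at 1.58 and 0.781 (-0.53). The Hsp70 regulator gene *Hspbp1* was at 51.9 and 38.7 (-0.41) and *Hspbap1*, an Hsp27-associated gene, at 1.03 and 1.41 (0.25).

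The partners of these chaperones were listed as cochaperones, subunits of the cytosolic chaperonin TRiC, subunits of prefoldin and genes of the unfolded protein response. Of the 36 cochaperones and partners, 33 were kept. The fold was passed toward Lgr5+ by 10 (30.3%) and toward Lgr6+ by 4 (12.1%), with a median of -0.28. With equal sums 8 and 6 passed (median -0.06). Those of Hsp90 included *Cdc37*, which brings kinases to Hsp90, at 78.5 in Lgr5+ and 30.4 in Lgr6+ (-1.34), and *Stip1*, which bridges Hsp70 and Hsp90, at 46.7 and 29.8 (-0.63). Those of Hsp70 included *Stub1*, the ubiquitin ligase CHIP, at 413 and 167 (-1.30), *Bag3*, the partner of *Hspb8*, at 11.8 and 4.33 (-1.26), and *Bag1*, an exchange factor, at 115 and 69.3 (-0.73). *Hscb*, a J protein of iron-sulfur cluster assembly whose symbol lies outside the rule, was at 32.4 and 8.99 (-1.74). The 4 genes higher in Lgr6+ were *Grpel1*, the exchange factor of mitochondrial Hsp70, at 6.72 and 20.4 (1.47), *Hyou1*, the Hsp110 of the ER, at 4.56 and 9.32 (0.89), *Bag5* (0.81) and *Gak*, a J protein of clathrin uncoating (0.72).

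*Sil1*, which like *Hyou1* encodes an exchange factor of BiP, was on the other side, at 22.1 in Lgr5+ and 11.1 in Lgr6+ (-0.93). Of the 8 TRiC genes 7 had a negative sign as deposited, with *Cct8* (-0.64) past the fold and *Cct6a* positive (0.36), and their median was -0.39 (-0.13 with equal sums). None of the 8 passed toward Lgr5+ under the other 3 scalings, and 1 passed toward Lgr6+ with equal sums. All 5 prefoldin genes in the table were negative as deposited (median -0.30, and -0.04 with equal sums). *Pfdn2*, at 491 and 147 (-1.73), and *Pfdn5*, at 1113 and 642 (-0.79), passed the fold. Each of these TRiC and prefoldin genes reached 50 FPKM in a population. Negative signs were common at that level: as deposited, 1417 of all 2274 such genes were negative, with a median of -0.21. Of the 15 genes of the unfolded protein response 14 were kept, and 4 passed toward Lgr5+ and 2 toward Lgr6+ (median -0.27). With equal sums 2 passed toward Lgr5+ and 3 toward Lgr6+ (median -0.01). As deposited, 8 of the 14 stayed under the fold. *Atf4*, the effector of the PERK branch, was at 554 and 169 (-1.70), whereas *Xbp1*, the effector of the IRE1 branch, was at 6.34 and 28.9 (2.03). *Ern1*, which encodes IRE1, was listed at 0 in both populations. The activity of either branch was not tested. *Sdf2l1*, a lumenal partner of *Dnajb11*, was at 16.5 and 43.6 (1.35), in the direction of *Dnajb11*.

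The cells had been digested with warm trypsin and sorted before lysis, a procedure known to induce immediate early genes. Of 10 such genes, 5 passed the fold toward Lgr5+ and none toward Lgr6+ (median -0.55), and 2 and none with each of the other 3 scalings. Among the 5 were *Fos* at 383 in Lgr5+ and 242 in Lgr6+ and *Egr1* at 442 and 275. The part of this in the differences of the heat-inducible members was not tested.

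**Figure D4:**
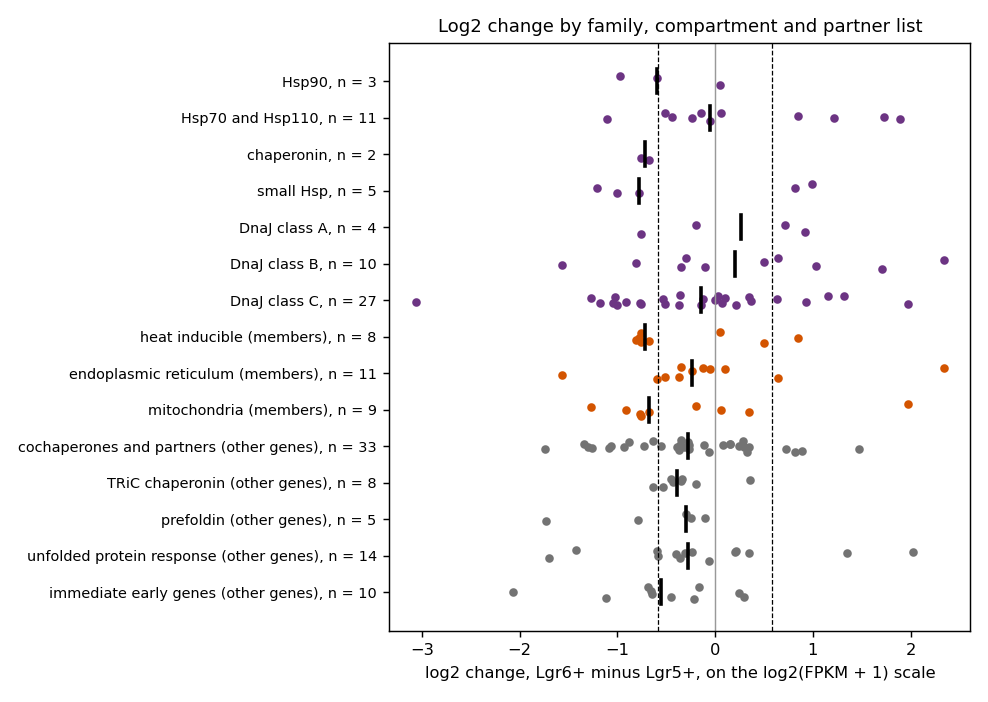
Difference in log2(FPKM + 1), Lgr6+ minus Lgr5+, of each kept gene (points, 1 per gene) by family (purple), compartment or use (orange) and list of other genes (grey), with the median of each list as a black bar, dashed lines at the 1.5-fold limit and n the number of kept genes. The medians of the chaperonin, small Hsp, heat-inducible and mitochondrial lists lie between -0.78 and -0.68, and those of DnaJ classes A and B above 0. *Hspd1* and *Hspe1* belong to the chaperonin, heat-inducible and mitochondrial lists alike, so the medians of these lists rest on shared genes.

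Shared positions limit part of these values. The annotated genes of 32 members overlap another gene, 18 of them among the 37 past the fold, and 10 deposited intervals exceed 1.5 times the length of the annotated gene, 5 of them of members past the fold. Counting by strand is not given in the sources used here, so reads of overlapping genes cannot be told apart.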

How the data were processed

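RNA-Seq was performed by the authors on sorted Lgr5+ and Lgr6+ progenitors, with cDNA from a SMART-Seq v4 low-input kit and paired-end sequencing. Trimmomatic served for trimming, TopHat for mapping to the genome and RefGene for gene models, and the authors' deposited FPKM values came from Cufflinks. Versions of these tools are not given in the sources used here. Per the labels the genome was mm10 and per the methods mm9, and the deposited intervals of all 74 members overlap the gene of the same symbol in RefSeq GRCm38.p6. The deposited table also holds the authors' own log2 fold change, p-value and q-value per gene, which were not used. The paper gives a range of read numbers and mapped shares over its samples, but not which belong to which population. Fragment counts were not analysed here. Depth per column was thus only estimated, from the steps between the lowest FPKM values of genes with 1 annotated transcript.

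The design named limma on log2(FPKM + 1) if the table held single samples. It holds 1 combined value per population, so a fold of 1.5 with a pseudocount of 1 and a minimum FPKM of 1 in at least 1 population took its place, with no test. The members, lists and alternatives were chosen with earlier results of these data known. Named were every kept member of the Hsp90, Hsp70, Hsp110, chaperonin and small Hsp families, and, of the DnaJ genes, the 5 with the highest mean level, those with an FPKM of at least 5 in a population and a difference of at least 2-fold, and the extremes of each class. Other members were named after their values were seen. Python 3.11.15, numpy 2.4.6, pandas 2.3.3 and matplotlib 3.10.9 were used, and the calculation was tested on simulated data. The counts and the median of all members and the values of the named members were repeated under other settings. These were a pseudocount of 0.1, no filter, a minimum FPKM of 5, a minimum of 1 in both populations, 3 other scalings (equal sums, quantile normalization, equal upper quartiles), a ratio without a pseudocount and a 2-fold limit. Families and lists were repeated with the 3 other scalings only, and the groups by level and the sums were not repeated. Deposited starts count from 0 and were raised by 1.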

Additional observations from a re-analysis of the deposited data

How the results depend on the processing

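The median difference of the members, -0.14 as deposited, was -0.0306 without the filter, where members listed at 0 enter, and turned to 0.11 with equal sums and to 0.0052 with equal upper quartiles. The count of members higher in Lgr5+, 20 as deposited, was 12 with equal sums and 10 with the 2-fold limit. The count higher in Lgr6+, 17 as deposited, was 9 with the 2-fold limit. At that limit, 15.6% of the kept members passed toward Lgr5+ (beside 11.7% of all kept genes) and 14.1% toward Lgr6+ (beside 18.2%). Leaving out the members in shared loci, an alternative chosen after seeing the data, left 34 kept members, with a median of -0.09. Of these, 10 were higher in Lgr5+ (29.4%, beside 23.3% of all kept genes) and 9 in Lgr6+ (26.5%, beside 28.5%). The other settings kept both counts within 1.5 times. The members' median lay below that of all genes in all 10 other settings, by 0.03 without the filter and by 0.08 to 0.19 in the others. Not all of these settings could change this distance, since the 2-fold limit does not enter the median. Equal sums and equal upper quartiles move members and other genes nearly alike. Of the 28 named members past the fold, 17 passed it in every setting they could be evaluated in. With equal sums *Dnaja1*, *Dnajc19*, *Hsp90b1*, *Hspb1*, *Hspd1* and *Hspe1* fell under it and *Dnajc15* passed it (0.61), *Hsp90b1* and *Hspe1* lay under it with all 3 other scalings, and no named member changed sign in any setting while past the fold. No paired analysis was possible because the table holds 1 combined value per population, and for the same reason leaving out each replicate was not run. Depth per column is known only from the estimated steps of the lowest values. The step was 0.129 FPKM times kilobase in Lgr5+ and 0.0402 in Lgr6+. If a step is 1 fragment, the Lgr5+ column rests on fewer fragments, which limits its low values and its 0s. Of all genes, 9439 were at 0 in Lgr5+ and 8215 in Lgr6+.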
